A study of Mus musculus with 10 samples.

Results

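The genes described here are Atf4, which encodes the transcription factor ATF4, and 9 genes of amino acid supply and of the response to its shortage: Asns, Phgdh, Psat1, Shmt2, Mthfd2, Slc7a5, Slc7a11, Chac1 and Trib3. They were taken by name, and each symbol was matched to a single Ensembl identifier, which gave 10 of the 40620 genes in the count table. All 10 passed the filter on low counts. RNA was sequenced from MC3T3-E1, a mouse calvarial pre-osteoblast line, at 5 stages with 2 replicates (A and B) each, 10 libraries in all. Subconfluent and confluent cells were kept in growth medium, αMEM with 10% iFBS. The study's methods also list penicillin-streptomycin and L-glutamine in its maintenance medium. Cells of the 24 h, 14 d and 21 d stages were kept for that time in differentiation medium, which was αMEM with iFBS and penicillin-streptomycin, to which 10 mM β-glycerophosphate was added along with ascorbic acid at 50 µg/ml. All libraries came from the same wild-type line, which the study's methods name as Subclone 4. No cells kept for 14 d or 21 d in growth medium were among the samples, so time in culture and differentiation medium cannot be told apart. Nothing in the labels says that replicates came from separate cultures, so the p-values measure only the spread between these libraries.

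ATF4 is the main effector of the integrated stress response. Kinases that sense amino acid shortage, unfolded proteins in the endoplasmic reticulum, double-stranded RNA or low heme phosphorylate the initiation factor eIF2α, which lowers protein synthesis in general but lets more ATF4 be translated from its existing mRNA. ATF4 then pairs with other leucine zipper factors at C/EBP-ATF elements of genes for amino acid synthesis, import and tRNA charging. In osteoblasts ATF4 is known as a factor needed for late differentiation and for the amino acid uptake that collagen synthesis draws on. Because much of its control is on translation, Atf4 mRNA alone does not report the amount of the protein.

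Sequence before the RefSeq start is shown for the genes that held a match to 1 pattern of the C/EBP-ATF element in the bases searched. Other forms of the element were not searched, so a gene without a match is not shown to lack a site. RefSeq promoter windows on GRCm38.p6 were found for 9 of the 10 genes, and Slc7a5 had no entry. The letters TGATGNAAN were searched on both strands in the 250 bases before each start. They were found in 3 genes, Chac1, Slc7a11 and Asns, while 3.89% of 27025 genes and 3.44% of 32851 promoters held them. The Chac1 stretch is chr2:119350992-119351228 on the plus strand, the Slc7a11 stretch is chr3:50443615-50443863 on the minus strand, and for Asns the bases around the match are given, chr6:7693214-7693242 on the minus strand. Each runs 5′ to 3′ in the direction of the gene, and capitals mark the matches.
Chac1: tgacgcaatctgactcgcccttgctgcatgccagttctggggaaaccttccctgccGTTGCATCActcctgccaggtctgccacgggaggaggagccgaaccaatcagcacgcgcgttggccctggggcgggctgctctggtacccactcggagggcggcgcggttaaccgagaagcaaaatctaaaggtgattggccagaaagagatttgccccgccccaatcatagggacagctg
Slc7a11: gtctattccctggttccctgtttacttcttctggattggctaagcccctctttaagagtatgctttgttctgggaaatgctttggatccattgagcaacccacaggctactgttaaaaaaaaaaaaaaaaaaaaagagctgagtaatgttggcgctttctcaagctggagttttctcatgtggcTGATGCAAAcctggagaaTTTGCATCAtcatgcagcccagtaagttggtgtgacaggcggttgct
Asns: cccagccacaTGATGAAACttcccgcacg
Chac1 held 1 match, 194 to 186 bases before its start, read on the opposite strand. Slc7a11 held 2 that face each other, at 66 to 58 and at 48 to 40 bases before its start, and Asns held 1 at 23 to 15 bases. These distances count from the RefSeq starts. For Chac1 the bases before that start end at 119351241, while GENCODE begins the gene at 119351229, where the printed stretch stops. For Asns the bases before the RefSeq start begin at 7693210, while GENCODE begins the gene at 7693254, so by GENCODE the match lies inside the gene. The windows of Mthfd2 and Psat1, where no match to the C/EBP-ATF letters was found, lie far inside the GENCODE genes. They begin at 83317605 for Mthfd2 and at 15925060 and 15924623 for Psat1. GENCODE begins these genes at 83325908 and 15947337, and the bases before those starts were not searched. A further element, TGACNNNGC, the antioxidant element bound by NRF2, was searched on both strands and was found in Phgdh and Asns, against 11.52% of genes and 10.16% of promoters. A match describes the letters in these windows only.

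Total counts per library ran from 44736156 to 162939333, and the 10 genes had between 222 and 45915 counts in a library. Levels are given as RPKM (read counts scaled to gene length and to sequencing depth), which the authors computed from the counts. Differences are given as log2 fold changes from edgeR's quasi-likelihood test on the counts of all 10 libraries, with the standard error (SE) and a Benjamini-Hochberg adjusted p over the 20808 genes tested, and a gene was called at an adjusted p under 0.05. The 24 h replicates stood apart: across 16133 genes the log2 ratio of A to B had an SD of 0.67 there and of 0.28 to 0.32 at the other stages. The libraries of the first 3 stages carry another pair of index sequences than those of 14 d and 21 d, so a difference across that line and a difference between library sets cannot be told apart. Both stages of 21 d against 14 d lie within the same set. The osteoblast markers Runx2, Sp7, Alpl, Col1a1, Ibsp and Bglap were all detected at every stage, with summed levels of 5501 to 5721 RPKM in subconfluent cells, 14560 to 15850 RPKM at 14 d and 8498 to 9044 RPKM at 21 d. In 21 d against 14 d 3 of these 6 fell and 0 rose (5.95% and 3.77% of all genes did). Their median log2 fold change was -0.82, and their part in the changes of the 10 genes was not tested. Summed endothelial markers reached at most 0.108 RPKM, muscle markers 0.634 RPKM and adipocyte markers 1.13 RPKM. Summed blood cell markers lay between 13.2 and 19.2 RPKM at all stages, most of it Lyz2.

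Of the 10 genes, most had their lowest level at 14 d and were higher again at 21 d. Against confluent cells 9 fell and 0 rose at 14 d (15.3% and 16.9% of all genes tested did), and from 14 d to 21 d 6 rose and 1 fell (3.77% and 5.95% of all genes did). Trib3 and Chac1 had their highest levels at 21 d, and Slc7a11 had its lowest. In bulk samples such as these, fewer cells of a type and less RNA per cell cannot be told apart.

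**Figure D1:**
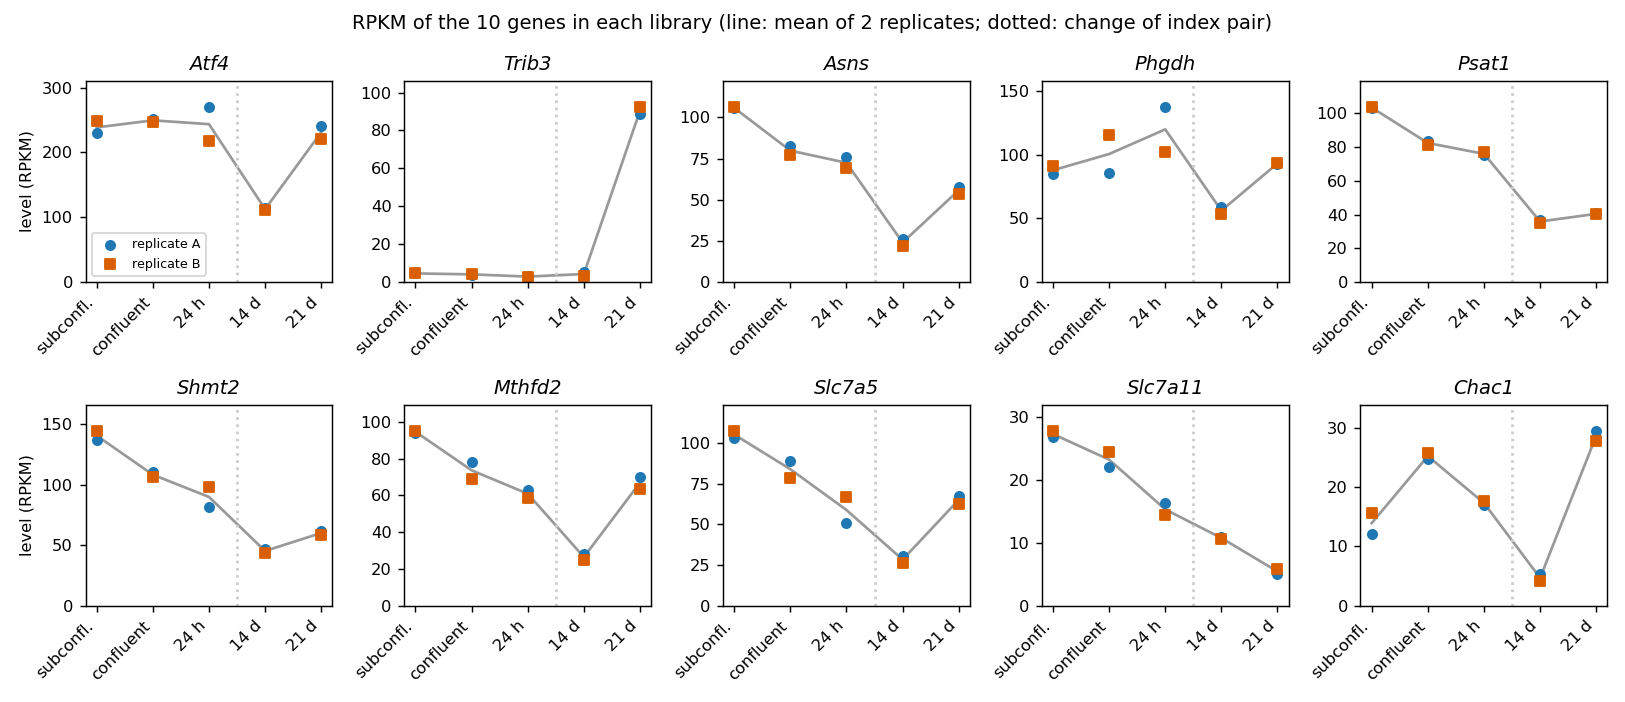
RPKM (vertical axis, linear, from 0) of each of the 10 genes at the 5 stages (horizontal axis), with a point for each library, a line through the mean of the 2 replicates and a dotted line where the index pair changes. Atf4 dipped to 111 to 114 RPKM at 14 d, Trib3 stood at 88.4 and 92.3 RPKM at 21 d against at most 5.06 RPKM before, and Slc7a11 was lowest at 21 d.

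Atf4 (ENSMUSG00000042406, chromosome 15, 80255184 to 80257541 on GRCm38, plus strand) had 229 and 248 RPKM in the subconfluent replicates, 252 and 247 RPKM in confluent cells, 270 and 217 RPKM at 24 h, 114 and 111 RPKM at 14 d, and 241 and 221 RPKM at 21 d. The 14 d libraries lay below all others, and the replicates of the other 4 stages lay between 217 and 270 RPKM. Its log2 fold change was -0.93 (SE 0.14) in 14 d against confluent cells (adjusted p = 0.0025) and 0.96 (SE 0.14) in 21 d against 14 d (adjusted p = 0.0056). Between 21 d and subconfluent cells it differed by 0.07 on the log2 scale (adjusted p = 0.71), within the spread of the replicates. It had the highest level of the 10 genes at each stage, and its range never touched that of the next gene. These levels divide by a length of 1721 bases in the authors' table, while the exons in GENCODE span 2358 bases. The call in 21 d against 14 d was lost when 14 d A, 14 d B or 21 d A was left out, with log2 fold changes of 0.90 to 0.97.

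Trib3 (ENSMUSG00000032715, chromosome 2) encodes a pseudokinase that is induced by ATF4 together with CHOP and that in turn holds back ATF4. Its levels were 4.54 and 4.56 RPKM in subconfluent cells, 3.70 and 4.39 RPKM in confluent cells, 3.14 and 2.61 RPKM at 24 h, 5.06 and 3.41 RPKM at 14 d, and 88.4 and 92.3 RPKM at 21 d. Every library before 21 d was low, and the lower 21 d library was 17.5 times the higher 14 d one. The log2 fold change in 21 d against 14 d was 4.34 (SE 0.22, adjusted p = 2.0e-04), a 20.21-fold difference that ranked 95 among 20808 genes ordered from the largest rise. Trib3 had the lowest level of the 10 genes at 14 d, where its range overlapped that of Chac1, and the third highest at 21 d. It was the only gene of the 10 that did not fall in 14 d against confluent cells: its log2 fold change there was 0.28 (SE 0.19, adjusted p = 0.31), and the replicates overlapped.

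Chac1 (ENSMUSG00000027313, chromosome 2) encodes an enzyme that breaks down glutathione in the cytosol. It had 12.2 and 15.7 RPKM in subconfluent cells, 24.7 and 25.8 RPKM in confluent cells, 17.0 and 17.7 RPKM at 24 h, 5.27 and 4.12 RPKM at 14 d, and 29.5 and 27.8 RPKM at 21 d. The replicates of each stage lay apart from those of every other stage. It fell by 2.21 on the log2 scale (SE 0.15, adjusted p = 1.1e-04) in 14 d against confluent cells and rose by 2.53 (SE 0.16, adjusted p = 3.0e-04) in 21 d against 14 d, where it ranked 221 among 20808 genes. Chac1 was also the only gene of the 10 called in confluent against subconfluent cells, where it rose by 0.83 on the log2 scale (SE 0.15, adjusted p = 0.03). That call was lost in 7 of 21 alternatives, 6 of them leaving out a subconfluent, confluent or 21 d library (log2 fold changes from 0.67).

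Asns (ENSMUSG00000029752, chromosome 6), which makes asparagine from aspartate and glutamine, had 105 and 106 RPKM in subconfluent cells, 82.5 and 77.2 RPKM in confluent cells, 75.8 and 69.0 RPKM at 24 h, 26.1 and 21.9 RPKM at 14 d, and 58.0 and 53.5 RPKM at 21 d. It was lowest at 14 d, and at 21 d it lay above 14 d and below each of the first 3 stages. Its log2 fold change was -1.52 (SE 0.12, adjusted p = 1.8e-04) in 14 d against confluent cells, 1.14 (SE 0.12, adjusted p = 0.0014) in 21 d against 14 d and, relative to subconfluent cells, -0.81 (SE 0.12, adjusted p = 9.7e-04) at 21 d.

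Phgdh and Psat1 catalyse the first steps of serine synthesis from a glycolytic intermediate. Phgdh (ENSMUSG00000053398, chromosome 3) had 84.9 and 91.0 RPKM in subconfluent cells, 86.1 and 115 RPKM in confluent cells, 138 and 103 RPKM at 24 h, 58.9 and 53.5 RPKM at 14 d, and 92.7 and 93.8 RPKM at 21 d. As a ratio, its replicates were the widest apart of the 10 genes in confluent cells and at 24 h, and only 14 d lay below the rest. It fell by 0.63 on the log2 scale (SE 0.20, adjusted p = 0.046) in 14 d against confluent cells, a call lost in 8 of 21 alternatives, among them leaving out confluent B (log2 fold change -0.40) or any subconfluent, 14 d or 21 d library. In 21 d against 14 d it was 0.66 (SE 0.20, adjusted p = 0.085). That passed the threshold in 8 of 21 alternatives, as did the 0.34 (SE 0.09, adjusted p = 0.06) of Shmt2. Among them was the fit without the 24 h stage, which called 5315 of all genes in place of 2023. Psat1 (ENSMUSG00000024640, chromosome 19) had 103 and 104 RPKM in subconfluent cells, 83.6 and 81.3 RPKM in confluent cells, 75.2 and 76.9 RPKM at 24 h, 36.7 and 35.1 RPKM at 14 d, and 40.8 and 40.2 RPKM at 21 d. It stayed near its 14 d level at 21 d, where Asns and Atf4 rose. The log2 fold change of Psat1 was -0.98 (SE 0.08, adjusted p = 1.9e-04) in 14 d against confluent cells, 0.10 (SE 0.08, adjusted p = 0.53) in 21 d against 14 d and, relative to subconfluent cells, -1.24 (SE 0.08, adjusted p = 2.2e-05) at 21 d.

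Shmt2 and Mthfd2 act one after the other in the mitochondrial folate pathway, which takes a carbon unit from serine. Shmt2 (ENSMUSG00000025403, chromosome 10) had 136 and 144 RPKM in subconfluent cells, 110 and 106 RPKM in confluent cells, 81.1 and 98.4 RPKM at 24 h, 46.7 and 43.7 RPKM at 14 d, and 61.5 and 58.6 RPKM at 21 d. Mthfd2 (ENSMUSG00000005667, chromosome 6) had 94.2 and 95.1 RPKM in subconfluent cells, 78.1 and 69.2 RPKM in confluent cells, 63.1 and 58.7 RPKM at 24 h, 28.1 and 24.8 RPKM at 14 d, and 70.3 and 63.6 RPKM at 21 d. Both were lowest at 14 d, but at 21 d Mthfd2 lay above 24 h cells and overlapped confluent cells while Shmt2 lay below both. Mthfd2 rose by 1.27 on the log2 scale (SE 0.11, adjusted p = 8.6e-04) in 21 d against 14 d. Relative to subconfluent cells, at 21 d Shmt2 fell by 1.11 (SE 0.09, adjusted p = 6.2e-05) and Mthfd2 by 0.38 (SE 0.11, adjusted p = 0.024). The call of Mthfd2 there was lost when any of the 4 libraries compared was left out. The levels of Shmt2 divide by 1500 bases in the authors' table and those of Mthfd2 by 2714, where the GENCODE exons span 3109 and 3487. Shmt2 shares 32 exon bases with Ndufa4l2 on the other strand, and the strand setting of the counting is not given in the sources used here.

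The transporters Slc7a5 and Slc7a11 pair with the same heavy chain, Slc3a2. Slc7a5 (ENSMUSG00000040010, chromosome 8), which carries large neutral amino acids such as leucine, had 103 and 107 RPKM in subconfluent cells, 89.0 and 78.6 RPKM in confluent cells, 50.9 and 66.7 RPKM at 24 h, 30.4 and 26.3 RPKM at 14 d, and 67.5 and 62.5 RPKM at 21 d. Slc7a11 (ENSMUSG00000027737, chromosome 3), which brings in cystine for glutathione in exchange for glutamate, had 26.8 and 27.8 RPKM in subconfluent cells, 22.1 and 24.4 RPKM in confluent cells, 16.3 and 14.4 RPKM at 24 h, 10.9 and 10.6 RPKM at 14 d, and 5.05 and 5.84 RPKM at 21 d. The means of Slc7a11 went down from each stage to the next with no overlap of replicates between stages, whereas Slc7a5 was lowest at 14 d. The steps of Slc7a11 before 14 d to 21 d were not called by edgeR. Their adjusted p was 0.36 (confluent against subconfluent), 0.066 (24 h against confluent) and 0.075 (14 d against 24 h). Slc7a5 rose by 1.12 on the log2 scale (SE 0.13, adjusted p = 0.002) and Slc7a11 fell by 1.06 (SE 0.13, adjusted p = 0.0024) in 21 d against 14 d. Relative to subconfluent cells Slc7a11 fell by 2.21 (SE 0.13, adjusted p = 1.6e-05) at 21 d, the largest fall of the 10 genes in that comparison. The lengths for Slc7a11 were 11233 bases in the table and 13922 in GENCODE. The heavy chain Slc3a2 had 97.3 and 87.4 RPKM at 14 d and 227 and 237 RPKM at 21 d, a log2 fold change of 1.25 (adjusted p = 8.6e-04). Of the 3 genes with the C/EBP-ATF letters shown above, Chac1 and Asns therefore rose and Slc7a11 fell in 21 d against 14 d.

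Across all 5 stages, the F test called 10 of the 10 genes, where 48.9% of all genes tested were called. The adjusted p was highest for Phgdh, 0.034, and lowest for Trib3, 7.5e-06. In confluent against subconfluent cells 1 of the 10 was called, and 3.28% of all genes were (1.95% higher, 1.34% lower). The 6 genes at an unadjusted p under 0.05 there included Asns, Psat1 and Shmt2, which differed by -0.43, -0.35 and -0.40 on the log2 scale. In 24 h against confluent cells edgeR called 0 of the 10, with 3 at an unadjusted p under 0.05, while DESeq2 called 3 and limma on log2 RPKM called 1. In that comparison edgeR called 5.15% of all genes (3.59% higher, 1.57% lower), or 1072 genes. DESeq2 called 2766 there, and limma called 1265 on log2(RPKM + 1) and 1097 on log2(RPKM + 0.1). Leaving out 24 h B raised the count of the 10, in a fit that also called many more of all genes.

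The comparisons that involve 14 d called most of the 10 genes. From 24 h to 14 d 0 of the 10 rose and 8 fell, where 9.08% of all genes rose and 8.21% fell (17.3% together), and the median log2 fold change was -0.97 against 0.01 over all genes. The 9 that fell in 14 d against confluent cells stood beside 32.1% of all genes called in either direction, with a median of -1.01 against 0.03. The 7 called in 21 d against 14 d stood beside 9.72% of all genes called in either direction, with a median of 1.04 against -0.03. These 3 comparisons share the 14 d libraries, so low values in those libraries enter all of them. The 21 d against subconfluent comparison does not use them: there 2 rose (Trib3 and Chac1) and 6 fell, beside 27.3% and 23.5% of all genes (50.7% together), with a median of -0.48 against 0.04. Atf4 and Phgdh were not called there. Where a change of more than 2-fold was required as well, 0 of the 10 were called in confluent against subconfluent cells (1.43% of all genes) and 0 in 24 h against confluent cells (2.13%). The counts became 3 in 14 d against 24 h (5.98%), 6 in 21 d against 14 d (3.97%), 5 in 14 d against confluent cells (13%) and 5 in 21 d against subconfluent cells (27.6%).

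**Figure D2:**
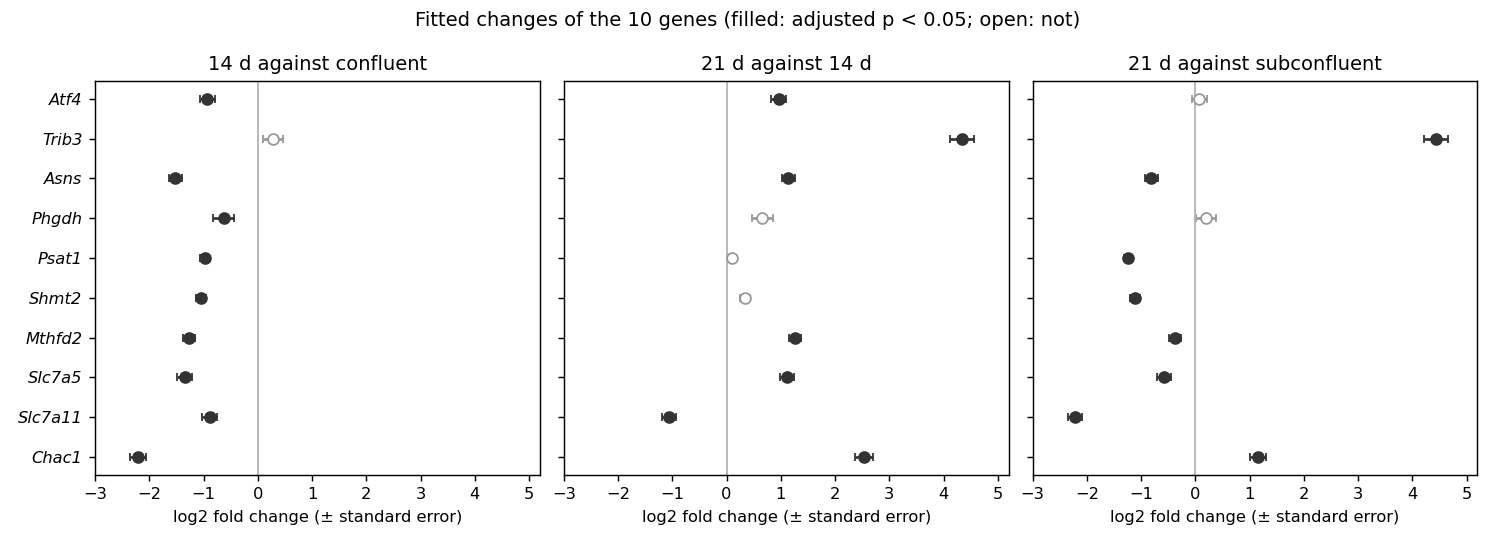
Log2 fold changes (horizontal axis) with standard errors (bars) of the 10 genes in 3 comparisons, from edgeR's quasi-likelihood fit to 10 libraries; filled points were called and open ones were not. In 14 d against confluent cells 9 filled points lie below 0, and in 21 d against 14 d Trib3 (4.34) and Chac1 (2.53) lie farthest right and Slc7a11 (-1.06) is the only gene below 0.

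In 21 d against 14 d 3.77% of all genes rose and 5.95% fell. Of 14 genes for factors that act before or with ATF4, 6 rose and 0 fell there, with a median log2 fold change of 0.40. The largest rises, as log2 fold changes unless given as a fold, were those of Ddit3, which encodes CHOP (7.97-fold, adjusted p = 8.5e-04), Atf5 (2.41, adjusted p = 1.6e-04), Atf3 (2.06, adjusted p = 4.6e-04) and Ppp1r15a, the stress-induced subunit of an eIF2α phosphatase (2.01, adjusted p = 1.6e-04). Ddit3 had 16.5 and 19.6 RPKM at 14 d and 145 and 158 RPKM at 21 d. The eIF2α kinases Eif2ak1, Eif2ak2, Eif2ak3 and Eif2ak4 had log2 fold changes between -0.28 and 0.09 in this comparison, and none was called. Without the 24 h stage 2 of the 14 were called as lower, in a fit that called 3120 genes as lower in place of 1239. Against confluent cells 3 rose and 3 fell at 14 d, beside 16.9% and 15.3% of all genes. Without the 24 h stage 6 rose and 7 fell, in a fit that called 10539 genes in place of 6688.

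Of 10 other stress output genes, 6 rose and 0 fell in 21 d against 14 d, beside 3.77% and 5.95% of all genes. Their median was 1.03, and 4 were not called. Those that rose included Gdf15, a stress cytokine (2.57, adjusted p = 9.9e-04), Herpud1, of endoplasmic reticulum degradation (1.43, adjusted p = 2.0e-04), Vegfa, the vascular growth factor (1.30, adjusted p = 5.8e-04), and Sesn2, a leucine sensor that restrains mTORC1 (1.03, adjusted p = 0.0023). Against confluent cells 4 rose and 4 fell at 14 d, beside 16.9% and 15.3% of all genes. The largest changes were those of Stc2 and of Vldlr, a lipoprotein receptor (3.83, adjusted p = 4.6e-05). Stc2 reached at most 0.00650 RPKM in confluent cells, and no fold is given for it.

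Of 13 other amino acid transporters, 5 rose and 1 fell in 21 d against 14 d, beside 3.77% and 5.95% of all genes. Their median was 0.52. Besides Slc3a2, the largest rises were those of the glycine transporter Slc6a9 (1.87, adjusted p = 0.0017) and of Slc38a7 (1.10, adjusted p = 0.002), and Slc7a6, another partner of Slc3a2, fell by 0.64 (adjusted p = 0.016). Leaving out any of the 14 d or 21 d libraries lowered these counts to 3 and 0. Of 11 other serine, glycine and folate enzymes tested, of 12 listed, 3 rose and 4 fell, with a median of 0.03. Aldh1l2, a mitochondrial folate enzyme, rose by 1.66 (adjusted p = 0.011) and Psph, of the last step of serine synthesis, by 0.82 (adjusted p = 0.011). Tyms, which makes thymidylate in dividing cells, fell by 1.36 (adjusted p = 0.0021), and Shmt1, the cytosolic counterpart of Shmt2, by 0.99 (adjusted p = 0.014). Without any of the 14 d or 21 d libraries 0 rose, and 2 fell without 14 d A, 14 d B or 21 d A. All 8 cell cycle markers fell in the same comparison, from summed levels of 242 to 256 RPKM at 14 d to 82.4 to 96.9 RPKM at 21 d, and their part in the result was not tested.

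The cytosolic aminoacyl-tRNA synthetases, which charge tRNAs with amino acids, moved unevenly. In 21 d against 14 d 3.77% of all genes rose and 5.95% fell. Of 12 that are named in the field as ATF4 targets, 9 rose and 0 fell there, with a median log2 fold change of 0.54. Sars had 40.6 and 43.7 RPKM at 14 d and 99.9 and 104 RPKM at 21 d, a log2 fold change of 1.20 (SE 0.12, adjusted p = 0.0012). Aars had 23.0 and 25.3 RPKM at 14 d and 55.5 and 61.4 RPKM at 21 d, a log2 fold change of 1.20 (SE 0.10, adjusted p = 7.4e-04). Cars (0.78) and Nars (0.73) followed. Of the 8 other cytosolic synthetase genes, 0 rose and 2 fell, with a median of -0.22. Those were Hars (-0.48, adjusted p = 0.037), with 35.5 and 36.8 RPKM at 14 d and 25.8 and 28.8 RPKM at 21 d, and Kars (-0.39, adjusted p = 0.045). From confluent cells to 14 d 11 of the 12 and 6 of the 8 fell, with medians of -0.79 and -0.55, and 1 of the 8 (Qars) rose. Of all genes, 15.3% fell and 16.9% rose there. Fewer of the named targets were called as higher at 21 d when any 14 d or 21 d library was left out. Without the 24 h stage the 2 falls of the other list became 5. That fit called 3120 genes as lower, in place of 1239. More of that list were also called as lower when 24 h A or 24 h B was left out, and none without any other single library. The rise of Qars at 14 d was not called when any library but those of 24 h was left out. Both lists were chosen with earlier results of these data known, and the difference between them was not tested.

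**Figure D3:**
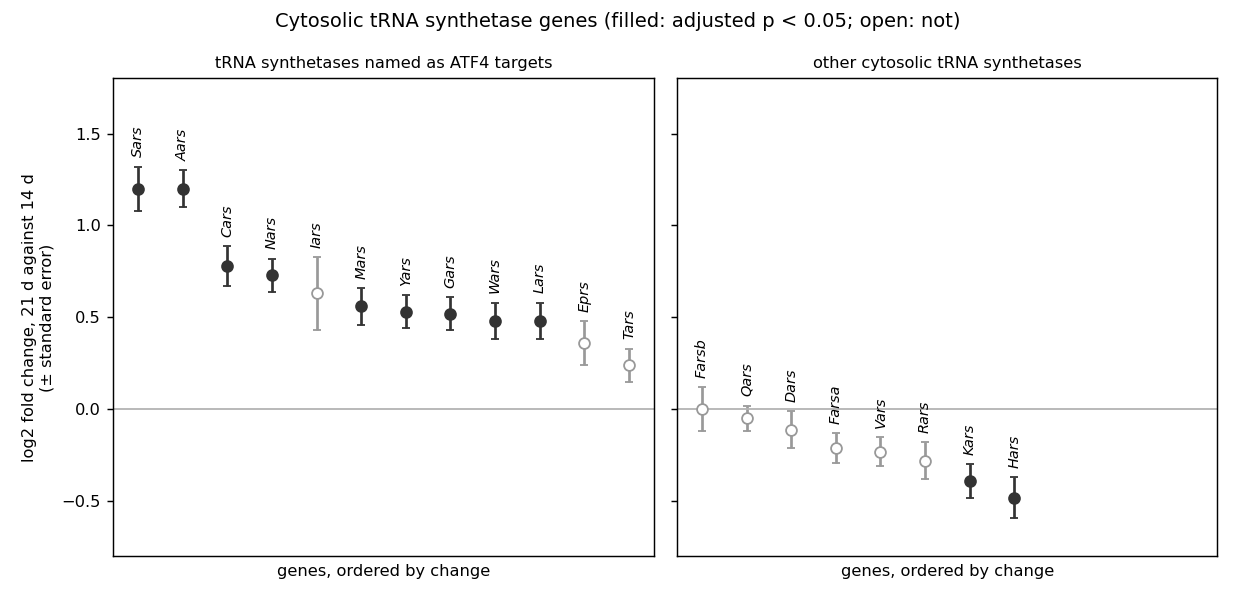
Log2 fold changes in 21 d against 14 d (vertical axis, with standard errors as bars) of 12 cytosolic tRNA synthetase genes named as ATF4 targets (left) and 8 others (right), each ordered by its change; filled points were called by edgeR. All 12 on the left lie above 0, from 0.24 to 1.20, and none on the right does, from -0.48 to 0.00.

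Of 10 chaperone and folding genes of the endoplasmic reticulum, 10 rose and 0 fell in 21 d against 14 d. Of all genes, 3.77% rose and 5.95% fell there, and the median of these 10 was 1.75. The largest rises were those of Sdf2l1 (3.02, adjusted p = 4.2e-04), Calr (2.47, adjusted p = 1.6e-04), Hspa5, the chaperone BiP (2.40, adjusted p = 1.6e-04), and Pdia4 (1.96, adjusted p = 1.6e-04). Hspa5 had 143 and 147 RPKM at 14 d and 770 and 844 RPKM at 21 d. Their part in the rise of the ATF4 genes was not tested. Of 10 glutathione and NRF2 genes, 2 rose and 0 fell in 21 d against 14 d, with a median of 0.04. These were Hmox1, the heme oxygenase (1.18, adjusted p = 7.3e-04), and Nfe2l2, which encodes NRF2 itself (0.59, adjusted p = 0.004), and the count was 1 without 21 d A. Of these 10, 9 fell in 14 d against confluent cells, beside 15.3% of all genes. In 21 d against subconfluent cells 9 fell and 1 rose, beside 23.5% and 27.3% of all genes. The 1 that rose there was Nfe2l2 (0.63). Nqo1, a much used NRF2 target, fell by 1.83 (adjusted p = 1.4e-05) in that comparison, beside the fall of Slc7a11 by 2.21.

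**Figure D4:**
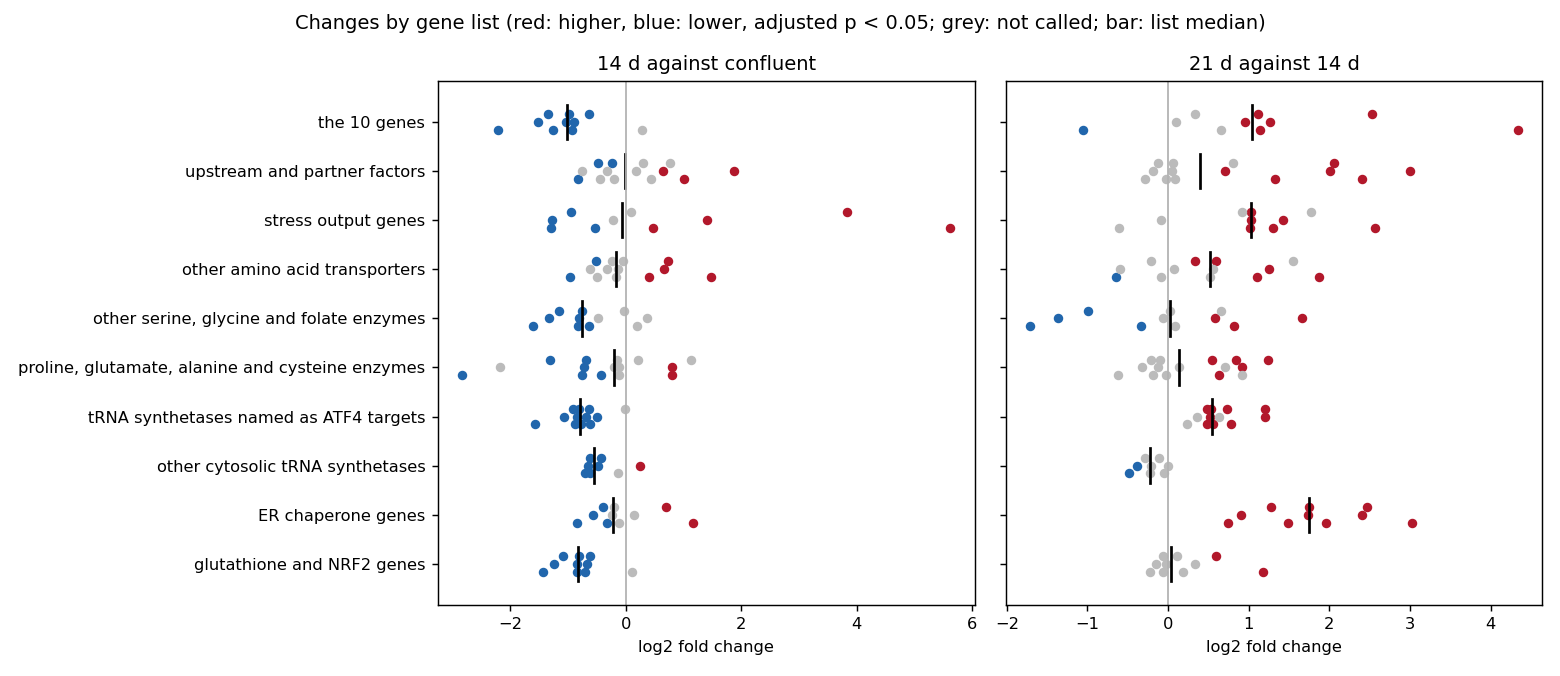
Log2 fold changes (horizontal axes, each with its own range) of the genes of 10 lists (rows) in 14 d against confluent cells (left) and 21 d against 14 d (right); each point is a gene, red or blue where it was called as higher or lower, and the bar is the list's median. In 21 d against 14 d the medians of the 10 genes (1.04), the stress output genes (1.03) and the chaperone genes (1.75) lie above 1. Those of the other synthetases (-0.22) and the glutathione genes (0.04) lie near or below 0. So do those of the other serine, glycine and folate enzymes (0.03) and the proline, glutamate, alanine and cysteine enzymes (0.14).

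Likeness of profile was measured as the root mean square difference of mean-centred log2 CPM (counts scaled to library size) over the 10 libraries, among the 12096 genes that averaged at least 5 CPM. Outside the 10 genes, the nearest to Atf4 were Eif4ebp1, a translation inhibitor (0.12), Pck2, the mitochondrial PEP carboxykinase (0.16), and Insyn1 (0.18). Those nearest to Asns outside the 10 were Cars (0.15), Psph (0.16) and Ly6e (0.22). Among the 10 genes themselves, the closest were Psat1 and Shmt2 (0.13) and Mthfd2 and Slc7a5 (0.15). Asns was nearest to Mthfd2 (0.20) and Atf4 to Phgdh (0.21), while Slc7a11 (0.43, to Psat1), Chac1 (0.58, to Atf4) and Trib3 (1.64, to Chac1) had no near neighbour in the list. These differences describe 10 libraries from 5 stages and carry no test.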

How the data were processed

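RNA-seq (51-base paired-end reads) of 10 libraries was analysed. The authors deposited whole-number read counts per gene, not normalized, and RPKM values, which scale the counts to gene length and to a read total, and the summed counts were 1.44 to 1.60 times that total. The submitters' processing notes name FastQC, TopHat2 2.0.9, R 3.0.1 and mm10, and the counting tool is not given in the sources used here. Samples were grouped by their labels. The merged column was used for 14 d A and 21 d B, which were sequenced in 2 lanes, and for 13526 and 13582 genes it was not the sum of the lanes.

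Symbols, exons and coordinates came from GENCODE on GRCm38 (39547 of 40620 identifiers matched), and promoters from RefSeq on GRCm38.p6. Counts were fitted in edgeR 4.0.16 (R 4.3.3) with filterByExpr (20808 genes kept), TMM and a quasi-likelihood model of 5 groups, and standard errors were obtained as log2 fold change over √F. The script was tested on simulated data. With 2 replicates a stage, the spread was estimated over all stages.

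The 10 genes and the other lists were chosen with earlier results of these data known. All 10 were named, and of each other list up to 4 called genes with the largest change in the comparison described; the eIF2α kinases, Psph as an enzyme, Slc3a2 by library, Qars and the levels of single list genes were added after their values were seen. Of the genes this rule selects, 1 is not reported here. Alternatives were DESeq2 1.42.0, DESeq2 size factors, library size alone, other filters, limma 3.58.1 on log2(RPKM + 1) and log2(RPKM + 0.1), fewer stages, a 2-fold minimum, the replicate letter as a block and each library left out. The letters were not taken to pair the libraries: correlations of the A minus B difference between stages ran from -0.33 to 0.32.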

Additional observations from a re-analysis of the deposited data

How the results depend on the processing

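Of the recomputed counts of the 10 genes called, 124 stayed within 1.5 times the reported count and 25 did not. The fits also differed in how many of all genes they called. In confluent against subconfluent cells the reported fit called 683 genes and DESeq2 1865. The fit without the 24 h stage called 3299 there, and that with only the 2 stages compared called 1108. In 14 d against 24 h the reported fit called 3597 genes and that with only these stages 319. In confluent against subconfluent cells (1 called) the count was 5 with DESeq2, 6 without the 24 h stage, 3 with only the 2 stages compared, 2 with limma at either pseudocount, 0 with a 2-fold minimum and 0 to 6 with a library left out. In 24 h against confluent cells (0) it was 3 with DESeq2, 1 with library size alone and 1 with limma at either pseudocount. With a library left out it was highest without 24 h B, where many more of all genes were called as well. In 14 d against 24 h (8) it was 2 with only these stages and 3 with a 2-fold minimum, and 6 to 9 with a library left out. A 2-fold minimum left 5 in 14 d against confluent (9; 8 to 9 with a library left out) and 5 in 21 d against subconfluent cells (8; 6 to 8). In 21 d against 14 d the count was 6 to 9, and for the F test 9 to 10, with a library left out. Atf4 in 21 d against subconfluent cells (0.07, not called) turned to -0.09 with library size alone and -0.05 with limma at either pseudocount, and was 0.00 to 0.12 with a library left out. The cause was not tested, but library size alone also moved the median of all genes, to -0.20 in 14 d against confluent and -0.12 in 21 d against subconfluent cells. With the replicate letter as a block, although the letters do not pair the libraries, the counts were 0 in confluent against subconfluent cells, 8 in 14 d against confluent cells and 9 for the F test, and did not move in the other comparisons.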

Other observations

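In 21 d against 14 d 3.77% of all genes rose and 5.95% fell. Of 15 enzymes of proline, glutamate, alanine and cysteine metabolism, 5 rose and 0 fell there, with a median log2 fold change of 0.14. These were Gpt2, the mitochondrial alanine aminotransferase (1.24, adjusted p = 5.8e-04), Bcat2, of branched-chain amino acid breakdown (0.92, adjusted p = 0.026), Got1 (0.84, adjusted p = 0.0018), and Aldh18a1 and Pycr1, which make proline (0.63 and 0.54, adjusted p = 0.011 and 0.0056), all by edgeR's quasi-likelihood test. Pycr1 is named outside the rule, to complete the 5. Without a 14 d or 21 d library 2 to 3 rose. In 14 d against confluent cells 2 rose and 6 fell, among them Cth, of cysteine synthesis, which fell by 2.83 (adjusted p = 6.6e-04).

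The genes with profiles nearest to Trib3, a query added after its values were seen, were Cdsn, with a root mean square difference of 0.64, and Ddit3 and Sdf2l1, both with 0.70.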
